A study of Mus musculus with 8 samples.

Results

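The neonatal Ccl21a intertypical thymic epithelial cells (TEC) described here were 62 of the 9953 cells in the data set, 34 in replicate 1 and 28 in replicate 2 of the 1-week libraries. A cell was a member where Epcam, Krt8, Krt18 and Krt5 together held at least 3 UMIs (unique molecular identifiers, counts of single mRNA molecules) and more than Col1a1, Col1a2, Col3a1 and Dcn together, which is called the epithelial condition below. It further needed Psmb11 and Prss16 under 0.1% of its UMIs, Ccl21a at 0.2% or more, at least 1 UMI of Krt5 or Krt14, and 0 UMIs of Aire. The same rule found 751 cells at 16 weeks, 247 in replicate 1 and 504 in replicate 2. The cells were thus selected on measured RNA of the same cells, so Ccl21a, the keratins, Psmb11, Prss16 and Aire are given as a description of the choice.

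All cells came from the thymus of wild-type C57BL/6 mice, with no treatment named in the labels, aged 1 week or 16 weeks, and were measured by CITE-seq, which counts mRNA together with DNA-tagged antibodies in single cells. Haematopoietic cells were depleted through CD45, and EpCAM1+ and EpCAM1- stroma was sorted and mixed at a fixed ratio, so the shares below are shares within the sort. Per the study's methods thymi of an age were pooled and the pool was split over 2 wells. The wells are called replicates here, yet their spread holds no variation between mice, and no test between ages was possible.

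TEC form the scaffold on which thymocytes mature. Cortical TEC (cTEC) drive early steps and positive selection, while medullary TEC (mTEC) display tissue antigens under Aire. Intertypical TEC carry features of both compartments, and those rich in Ccl21a secrete a ligand of CCR7 that draws thymocytes into the medulla. Krt5 and Krt14 are keratins of basal epithelium and Cnmd encodes chondromodulin.

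The surface of each cell was read through short DNA barcodes, of which the ones below carry the findings on protein. The whole barcode is in capitals because every base of it identifies the reagent, and each was read from its 5′ end. UEA1 is a lectin that binds medullary TEC, Sca1 is the product of Ly6a, CD40 is a receptor of the TNF family, and Podoplanin, CD63 and CD73 are surface proteins that stood apart between ages.
Sca1: TTCCTTTCCTACGCA
CD40: ATTTGTATGCTGGAG
Podoplanin: GGGCGATTTAGTGTG
CD63: ATCCGACACGTATTA
CD73: ACACTTAACGTCTGG
CD80: GACCCGGTGTCATTT
UEA1: AACCTTTGCCACTGC

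Members were scarce among neonatal epithelial cells. They made up 2.20% of the 1543 cells that met the epithelial condition in replicate 1 (exact 95% binomial interval 1.53 to 3.07) and 2.48% of 1131 in replicate 2 (1.65 to 3.56). At 16 weeks they made up 20.3% of 1217 cells (18.1 to 22.7) and 16.9% of 2991 (15.5 to 18.2). The intervals of the ages did not overlap. Intervals here cover counting error only. The shares also moved with the limits of the rule. With other limits the mean neonatal share of 2.34% ran from 0.952% to 3.69%, and the adult share of 18.6% from 9.26% to 24.5%. No member shared its barcode with a cell of another well, although 15 barcodes occurred in more than 1 well.

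Several cells lay close to the limits. At 1 week, 7 members had Ccl21a between 0.2% and 0.25%, and 5 cells that met every other condition lay between 0.15% and 0.2%. The limit on Psmb11 and Prss16 removed 48 neonatal cells that met all other conditions, against 26 at 16 weeks, and 16 neonatal members lay at 0.08% or above. Aire removed 35 neonatal and 1030 adult cells. Psmb11 and Prss16 are cTEC genes that the rule caps in members, and free RNA can carry them into any droplet. Their median share was 0.0646% and 0.0574% of UMIs in the neonatal members, and 0.042% and 0.037% in collagen-rich cells of the same wells, which should lack them (these express fibroblast collagens above the epithelial genes). In 16-week members and collagen-rich cells the median was 0 in every well. For Ccl21a the background ran the other way. Of collagen-rich cells, 0.336% and 0.685% reached 0.2% Ccl21a at 1 week and 6.36% and 8.54% at 16 weeks. The part of background in the shares was not tested.

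Ccl21a, on chromosome 4 (GRCm38, chr4:42772860-42773993, minus strand), reached a median of 0.453% of UMIs per cell in replicate 1 and 0.432% in replicate 2, with a highest cell of 4.23%. Adult members had medians of 0.485% and 0.527%. Summed over cells, Ccl21a stood at 12755 and 8991 CPM (each gene's share of UMIs, scaled to a fixed total) at 1 week and at 13487 and 11841 at 16 weeks, and the ages overlapped. Of the near-identical copies, Ccl21b was listed at 0 UMIs in all 4 wells and Gm21541 had 8 UMIs in neonatal and 90 in adult members, and the assignment of reads shared between copies is unknown.

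Of the marker genes proposed for these cells, Ccl21a, Krt5 and Krt14 were part of the rule, and Cnmd was not. Krt5 had a UMI in 50 of 62 members (80.6%, at a median of 7419 UMIs per cell), at 694.5 and 993 CPM, and Krt14 in 50, at 754.8 and 914.3. Of neonatal collagen-rich cells, which should lack Krt5 and had a median of 16796 UMIs, 21.4% had a UMI of it. Adult members held 1746 and 1761 CPM of Krt5. Neonatal cTEC held 41.1 CPM of Krt14, and neonatal collagen-rich cells 41.7. Cnmd was found in 6 of the 62 cells, and 75 of its 85 UMIs came from 2 cells of replicate 2. The name therefore does not rest on Cnmd. The study reports that Sca1 protein alone identifies intertypical TEC. Only 21 of the 62 neonatal members lay above the Sca1 limit used below, which is not the study's own gate. Of 20 genes on the intertypical list, 9 were at least 2-fold higher in members than in cTEC in both 1-week wells, among them Ly6a, Pdpn, Itga6 and Sox4, and 0 were lower. Of all 14274 genes with enough UMIs in either class, 3.53% were higher and 9.91% lower by that measure. Both classes were defined on RNA of these cells, so the counts describe the choice. Against neonatal Aire-positive TEC the list had 5 genes higher and 3 lower (Cldn3, Cldn4 and Ly6c1), beside 2.23% and 8.07% of all 10236 genes with enough UMIs, and of the genes just named only Pdpn was among the higher ones. Krt17, a keratin, stood at 2351 and 1892 CPM. Trp63, a transcription factor of basal epithelium, was at 154.6 and 205.9 CPM, below the 295.9 and 263.2 of adult members.

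Depth differed between the ages and bears on every comparison below. The median neonatal member held 7208 and 7959 UMIs, against 4389 and 3810.5 in adult members, and the 5 deepest cells supplied 45.6% and 47.5% of all member UMIs in the neonatal wells. Mitochondrial transcripts took a median of 8.20% and 8.97% of UMIs in neonatal members, 3.42% and 4.27% in neonatal cTEC. In adult members they took 8.87% and 10.5%. Ribosomal transcripts took a median of 11.3% and 10.4% in neonatal members and 6.60% and 6.71% in adult ones. Of the cells with the highest doublet scores, 0 were neonatal and 10 adult members. Markers of other cells were present at levels that differed by list. The 9 fibroblast markers that are not part of the rule summed to 1014 and 648 CPM in neonatal members and 1012 and 1156 in adult ones, against 304 in neonatal cTEC and 7548 in neonatal collagen-rich cells. Mural markers summed to 902 and 799 CPM, against 435 in neonatal cTEC, and to 1956 and 2095 in adult members. Both lists were thus above the level of neonatal cTEC. In neonatal Aire-positive TEC the fibroblast markers summed to 387 CPM, below the members, and the mural markers to 1639, above the neonatal members. The 9 macrophage and dendritic markers summed to 34.1 and 24.2 CPM at 1 week, with C1qb, C1qc, Tyrobp and Itgax at 0, against 27.8 in neonatal cTEC and 109 and 89 in adult members, where Lyz2 was the marker called lower at 1 week. Endothelial markers summed to 47 CPM in replicate 1 and 472 in replicate 2, where Plvap had 56 UMIs in 4 cells over both wells, against 106 and 99 at 16 weeks and 80 in neonatal cTEC. Thymocyte markers summed to 136 and 203 CPM, below the 633 of neonatal cTEC. Neonatal Aire-positive TEC held 213.5 CPM of the macrophage and dendritic, 574 of the endothelial and 379 of the thymocyte markers, each above the neonatal members. The part of other cells in the results below was not tested.

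Neonatal and adult members were then compared gene by gene, to ask how the RNA of cells under the same rule differs with age. A gene was called where each 1-week well lay at least 2-fold above, or below, each 16-week well, among 9984 genes with 50 or more UMIs over all members. The background was 2.35% of genes called higher at 1 week (235) and 6.09% called lower (608), 8.44% in either direction. These are descriptions of 1 pool per age, and the median log2 ratio over all genes tested was -0.05.

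The cell cycle list was called mostly in 1 direction. Of 26 tested genes on the cell cycle list, 22 were called higher and 0 lower, and the median log2 ratio was 2.45 (1.83 with each cell weighted equally). Mki67, which marks dividing cells, stood at 241.1 and 184.7 CPM in the neonatal wells. It stood at 16.4 and 21.6 CPM in the adult wells, a log2 ratio of 3.46 (95% counting interval 3.08 to 3.85). The neonatal wells lay far above the adult ones, and 33 of 62 neonatal members had a UMI of Mki67 against 52 of 751 adult ones. After each cell was thinned to 2000 UMIs the expected shares were 27.6% and 4.1%, with 12.7% in neonatal cTEC, 12.5% in neonatal collagen-rich cells and 17.9% in neonatal Aire-positive TEC. In CPM the Aire-positive TEC, at 203.1, lay between the member wells. The other division genes with the largest ratios were Hist1h1b, Hist1h2ap, Hist1h2ae, Pclaf, Cenpf, Top2a, Cdk1 and Stmn1, with log2 ratios between 3.03 and 4.22. A single cell gave 50.2% of the neonatal Hist1h2ae UMIs, 39.1% of Hist1h1b, 38.9% of Hist1h2ap, 33.5% of Stmn1 and 31.7% of Pclaf. With each cell weighted equally the ratios of these genes were 2.79, 3.20, 3.39, 2.41 and 3.06. The histone genes also have near-identical copies, so their values are uncertain.

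The same direction was found in other classes of the same wells. The cell cycle list had a median log2 ratio of 2.42 in collagen-rich cells, 1.83 in Aire-positive TEC and 0.94 in cTEC. The share of cells with at least 2 UMIs of the list after thinning was 88.2% (72.6 to 96.7) and 85.7% (67.3 to 96.0) in neonatal members. It was 49.0% (42.6 to 55.4) and 52.2% (47.7 to 56.6) in adult members. Neonatal cTEC had 81.7% and 78.4%, collagen-rich cells 77.9% and 79.8%, and Aire-positive TEC 85.2% and 82.4%. The summed level of the list was higher in Aire-positive TEC, at 5333 and 7155 CPM, than in members, at 4107 and 3270. The list holds widely expressed genes such as H2afz and Tubb5, so this share is not the share of cells in division. Of 12 tested genes on the list of D cyclins and cycle inhibitors, 1 was called higher, 1 lower and 10 in neither direction. Ccnd2, a cyclin of the first growth phase, was at 369.5 and 314.9 CPM against 129.9 and 142.4, and Rb1, which restrains entry into division, was at 7.86 and 3.03 against 40.4 and 38.3.

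**Figure D1:**
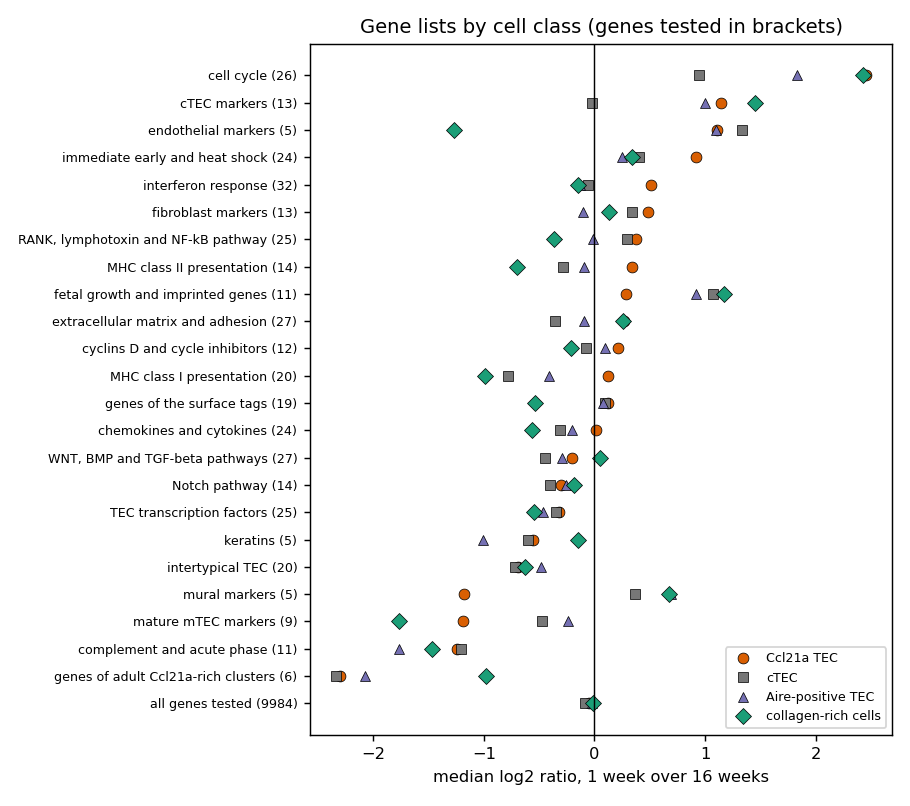
Median log2 ratio of 1 week over 16 weeks (x axis) for each gene list with at least 5 tested genes (y axis, genes tested in brackets) in Ccl21a TEC, cTEC, Aire-positive TEC and collagen-rich cells. With UMIs summed over cells, the cell cycle list is highest in Ccl21a TEC (2.45) and close to it in collagen-rich cells (2.42). With each cell weighted equally, which is not shown, it is 1.83 in Ccl21a TEC. The interferon response list is at 0.51 in Ccl21a TEC and at or below 0 in the other classes.

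Chemokines differed in both directions. Cxcl10, an interferon-induced ligand of CXCR3 (GRCm38, chr5:92346638-92348889), stood at 3006 and 2658 CPM in the neonatal wells. It stood at 334.6 and 339.8 CPM in the adult wells, and its log2 ratio was 3.07 (2.98 to 3.17). The wells of an age lay close together and the ages were far apart, with a UMI in 61 of 62 neonatal members. After thinning the shares were 88.9% in neonatal members and 54.2% in neonatal collagen-rich cells. Neonatal cTEC held 2164 CPM of Cxcl10, adult cTEC 635.3, and collagen-rich cells 647.6 and 155.1. Its relatives Cxcl9 (log2 ratio 1.89) and Cxcl11 (3.11, not on the chemokine list) were called too. Cxcl11 is annotated as a polymorphic pseudogene, so its RNA may not stand for a working chemokine. Ccl19, another CCR7 ligand, stood at 469.1 and 596.4 CPM against 198.7 and 262.1 and was not called.

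Ccl11, the eosinophil attractant eotaxin (GRCm38, chr11:82057823-82062955), was almost missing from the neonatal members. It had 18.3 and 15.1 CPM there and 768.1 and 1062 in adult members, a log2 ratio of -5.81 (-6.77 to -5.01). With each cell weighted equally the ratio was -3.98. In neonatal collagen-rich cells Ccl11 stood at 434.1 CPM and in neonatal cTEC at 15.1, so the neonatal members were at the level of the cTEC. Aire-positive TEC differed in the same direction, at 16.2 CPM at 1 week and 376.4 at 16 weeks (log2 ratio -4.54), and adult collagen-rich cells held 735.9. Of the 24 chemokine and cytokine genes tested, 3 were called higher (Cxcl9, Cxcl10 and Ccl25, which is described with the cTEC genes) and 3 lower (Ccl11, Ccl20 and Cxcl2).

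On the interferon response list 3 of 32 tested genes were called higher (Irf1, Ifit2 and Rsad2) and 1 lower (Ifi27). The list's median log2 ratio was 0.51 in members, -0.06 in cTEC, -0.13 in Aire-positive TEC and -0.15 in collagen-rich cells. Isg15, a ubiquitin-like protein of that response, stood at 1475 and 1032 CPM against 586.9 and 618.6 and was not called. Against neonatal Aire-positive TEC, 17 of the 32 genes were at least 2-fold higher in members in both wells and 1 lower, beside the 2.23% and 8.07% of all genes given above for these classes.

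Matrix genes were called in both directions. Tnc, which encodes tenascin-C, stood at 1436 and 887 CPM at 1 week. Adult members held 279.5 and 317.1 CPM of it, a log2 ratio of 1.97, and neonatal collagen-rich cells only 96.8. Col4a1, a basement membrane collagen, had a log2 ratio of 1.31 and Lamc1, a laminin chain, 1.27. Of the 27 matrix genes tested 3 were called higher and 6 lower, among them Timp1, Bgn and Prelp. Of the 9 fibroblast markers outside the rule, 1 was called higher (Col5a1) and 2 lower (Col6a2 and Lum). Over both wells Col5a1 stood at 68.8 CPM at 1 week and 22.1 at 16 weeks, and its log2 ratio was 1.64 in members, 1.45 in cTEC, 1.14 in Aire-positive TEC and 1.44 in collagen-rich cells. The rule genes Col1a1 and Col1a2 were called higher as well. Col1a1, at 97.0 and 90.8 CPM in neonatal members, was at 5554 in neonatal collagen-rich cells and 77.4 in cTEC.

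The intertypical list leaned to the adult cells. Of 20 tested genes, 6 were called lower at 1 week (Ly6a, Ly6d, Plet1, Cldn3, Cldn4 and Apoe) and 2 higher (Cnmd and Pdpn). Ly6a (GRCm38, chr15:74994877-74998031) stood at 228 and 569.2 CPM against 1531 and 1511. Both neonatal wells lay below both adult wells, and the neonatal wells were themselves apart. Apoe, which carries lipids, stood at 752.2 and 947.6 CPM against 3212 and 3142. The median log2 ratio of the list was -0.69 in members, -0.72 in cTEC, -0.48 in Aire-positive TEC and -0.63 in collagen-rich cells.

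On the complement and acute phase list, 6 of 11 tested genes were called lower, among them C3, Lcn2 and Lyz1, 0 higher and 5 in neither direction. C3, the central complement component, stood at 149.4 and 163.5 CPM against 1228 and 1367, and in collagen-rich cells it went from 425.2 at 1 week to 4388 at 16 weeks. Fcgbp, a mucin-like protein that binds IgG and was chosen after its values were seen, stood at 369.5 and 339.1 CPM against 4284 and 4806. In collagen-rich cells Fcgbp went from 18.2 to 392.7 CPM.

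Apart from Ccl11, the genes with the largest ratios toward the adult cells rested on few neonatal UMIs. Ddit4l, an inhibitor of mTOR signalling, had 1 neonatal UMI against 388 adult ones, a log2 ratio of -5.88 (-11.18 to -3.39). Scn7a, a sodium channel, had 3 against 710, and the chitinase-like genes Chil3 and Chil4 had 4 each against 657 and 807. With each cell weighted equally the ratio of Chil4 was -2.81 instead of -4.93. Aire-positive TEC held 34.8 and 508.6 CPM of Chil4 at 1 week and 88.7 and 58.6 at 16 weeks, so the ages overlapped there. Gm38211 had 2 neonatal UMIs. Gpx2, Ces1d, Pkp2, Gdpd5, Hsd11b1 and 1700019D03Rik had 1 each, with log2 ratios between -4.30 and -4.58. These ratios depend on how few counts are treated, because only pools at 0 were set to 3 counts, which held back 9 called genes with no neonatal UMI. With every pool under 3 counts set to 3, Ddit4l was at -4.29 and the 6 genes with 1 UMI at -2.99 to -2.71, and 6 of the 12 genes named in this direction were still among the 12 with the largest ratios. Each of these genes lay lower in both neonatal wells than in both adult wells. Other adult classes held more of some of them. Hsd11b1 stood at 28.7 CPM in adult members and 629 in adult collagen-rich cells (26.8 at 1 week). Gm38211 stood at 67.6 and 98.6 in these adult classes, and 1700019D03Rik at 27.6 in adult members and 74.0 in adult cTEC. Adult members held the most Ddit4l (82.5) and Scn7a (150.9), whose log2 ratios in Aire-positive TEC were -3.51 and -4.14.

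**Figure D2:**
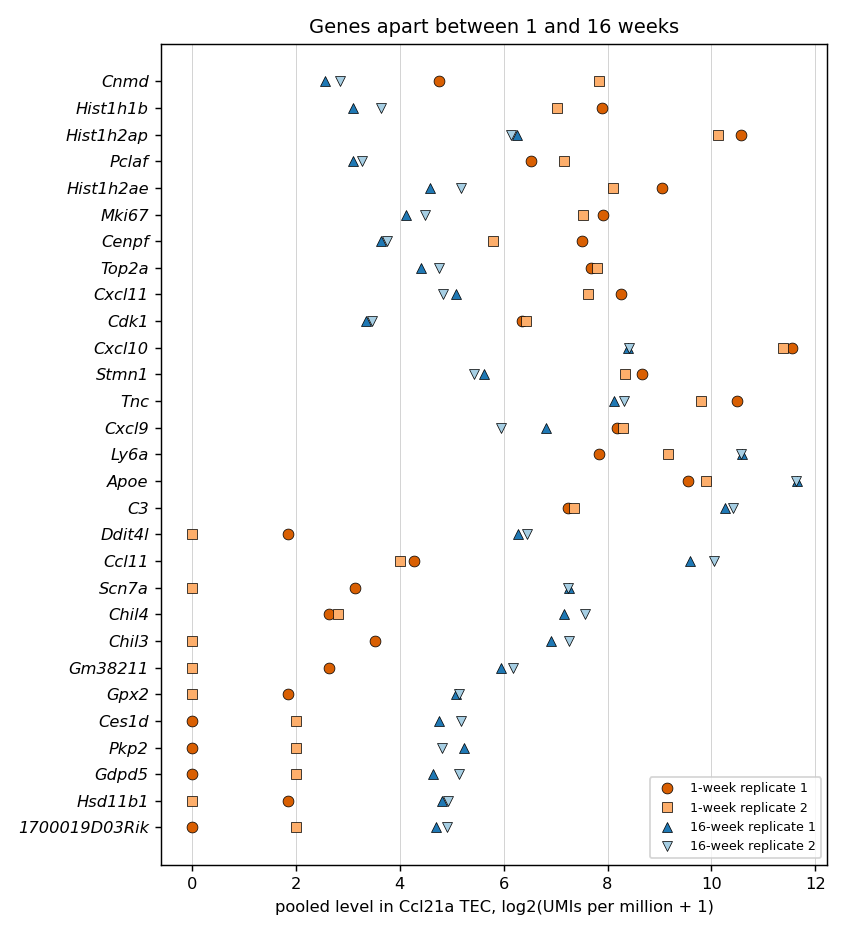
Pooled level in Ccl21a TEC, as log2 of CPM plus 1 (x axis), of the 24 genes with the largest ratios and 5 genes named in the text (y axis), with 1 point per well. Orange points are the 1-week wells and blue points the 16-week wells, and for each gene shown the ages do not overlap.

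Of 25 tested transcription factors of TEC, 3 were called lower (Fezf2, Tfap2a and Isl1) and 0 higher, beside the 8.44% of all genes called in either direction. Fezf2, which with Aire drives tissue antigens in the medulla, stood at 34.1 and 27.2 CPM against 126.1 and 140.6. Foxn1, the master regulator of TEC, stood at 104.8 and 93.9 CPM against 59.5 and 41.4. No gene of the RANK, lymphotoxin and NF-kB list was called among 25 tested, and Tnfrsf11a, which encodes RANK, stood at 73.4 and 78.7 CPM against 68.8 and 82.5. None of the 20 MHC class I genes was called, and on the MHC class II list Ctsl and Ifi30 were higher and H2-Ob lower, of 14. The class II gene H2-Aa stood at 2933 and 2364 CPM against 2457 and 2411.

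On the cTEC marker list without Prss16 and Psmb11, which the rule caps, 4 of 11 tested genes were called higher (Ccl25, Tbata, Ctsl and Cd83) and 1 lower. These markers summed to 6814 and 5828 CPM in neonatal members, 2917 in neonatal collagen-rich cells and 26283 in neonatal cTEC. Ccl25 stood at 434.1 CPM in neonatal members and 328.5 in neonatal collagen-rich cells. Tbata stood at 752.9 and 479.9 CPM, and Ctsl at 4730 and 3857 in the member wells and 1668 in collagen-rich cells. Neonatal cTEC held 4914 CPM of Ccl25 and 6903 of Tbata, above the members. H19, an imprinted RNA of fetal tissue, stood at 35.1 CPM in neonatal members and 37.9 in cTEC, against 1044 in collagen-rich cells.

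Of 24 tested genes on the immediate early and heat shock list, 8 were called higher, among them Fos (2128 and 1532 CPM against 725 and 691.7) and Atf3, 3 lower, Hspa1a, Hspa1b and Hspb1, and 13 in neither direction. In collagen-rich cells Fos stood at 3413 and 2646 CPM and Hspa1a at 177.5 and 2310. These genes respond to cell isolation, whose part was not tested. Of the sex-linked genes, Xist stood at 621.1 and 469.2 CPM against 1828 and 2186, and Ddx3y had 15 UMIs at 1 week and 0 at 16 weeks, so the pools differed in their mix of sexes, which cannot be told apart from age.

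The surface tags were not used by the rule, which took RNA alone, but the Epcam tag is tied to the choice through Epcam RNA and the sort on EpCAM1. Tag counts were divided by the cell's tag total, scaled to the mean total and taken as log2 of the value plus 1, and a tag was called where each 1-week well mean lay at least 0.5 from each 16-week well mean. Of 27 tags, 5 were called higher at 1 week, 18.5% of all, and 3 lower, 11.1%. Median tag totals were 6530 and 7290.5 in neonatal members and 2600 and 1823 in adult ones.

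Neonatal members bound UEA1 strongly. The mean was 10.52 and 10.40 at 1 week and 10.33 and 10.50 at 16 weeks, and the ages overlapped. UEA1 supplied 40.0% to 49.3% of the tag total of members and MHCII 24.6% to 30.0%, so scaling by that total limits how far either can rise. With a centred log ratio UEA1 was called higher at 1 week (a difference of 0.57), and in counts that were not scaled both were. In neonatal cTEC UEA1 averaged 7.61 and in Aire-positive TEC 9.55. MHCII averaged 10.20 and 9.97 against 10.03 and 9.91, below the 11.27 of neonatal cTEC. CD83 averaged 0.36 and 0.18 against 1.26 in neonatal cTEC. Of the 27 tags CD40, CD86, Sca1 and UEA1 were at least 0.5 higher than on neonatal cTEC in both wells, and CD83, CD200, CD274 and MHCII at least 0.5 lower.

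Scaled by the tag total, Sca1 had the largest difference between ages of the 27 tags. With a centred log ratio its difference was -2.11, and those of Podoplanin, CD63 and CD40 were 2.35, 2.31 and 2.19. Its scaled mean was 5.64 and 6.35 in the neonatal wells and 8.60 and 8.64 in the adult wells, a difference of -2.62. Both neonatal wells lay below both adult wells, and neonatal cells were spread from 2.19 to 9.22. Other classes shifted the same way, by -2.39 in cTEC, -2.12 in Aire-positive TEC and -1.93 in collagen-rich cells. In arithmetic means of counts that were not scaled the wells did not separate by age, and both adult means (367 and 271 tags per cell) lay between the neonatal ones (175 and 388). As log2 of the unscaled count plus 1 the difference of Sca1 was -1.02, and it was not called.

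Neonatal members were divided by a limit into cells with much and with little Sca1. The limit was set after the data were seen, at the 90th percentile of neonatal cTEC (7.12). Above it lay 11 of 34 neonatal members in replicate 1 (32.4%, interval 17.4 to 50.5) and 10 of 28 in replicate 2 (35.7%, 18.6 to 55.9), against 86.2% and 87.7% of adult members. The share above it was larger at 16 weeks in the other classes too. It was 10.0% at 1 week and 43.2% at 16 weeks in cTEC, and 18.9% and 50.3% in Aire-positive TEC. Collagen-rich cells had 50.7% and 91.8%. The 21 Sca1-rich and 41 Sca1-poor neonatal cells had medians of 7700 and 6999 UMIs and 0.42% and 0.45% Ccl21a. Of 2247 genes with 50 or more UMIs, 8 (0.356%) were at least 2-fold higher and 7 (0.312%) at least 2-fold lower in the Sca1-rich cells, between every pair of wells and with each cell weighted equally. Ly6a RNA, which encodes Sca1, stood at 900.6 CPM in the Sca1-rich and 84.7 in the Sca1-poor cells, higher in both wells, a fold of 10.6 that was 4.93 with each cell weighted equally. Ccl19 stood at 1007 and 247.4 CPM, again higher in both wells, a fold of 4.07 that was 2.52 with equal weights. In the other direction Sparc, which encodes a matrix glycoprotein and was chosen after its values were seen, stood at 235.6 and 724.3 CPM. Among the other tags the differences of Sca1-rich from Sca1-poor cells were 0.83 for CD86, -0.82 for CD49a and -0.60 for CD274, each in the same direction in both wells. Mki67 stood at 152 and 251.8 CPM, with the order of replicate 1 reversed in replicate 2.

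**Figure D3:**
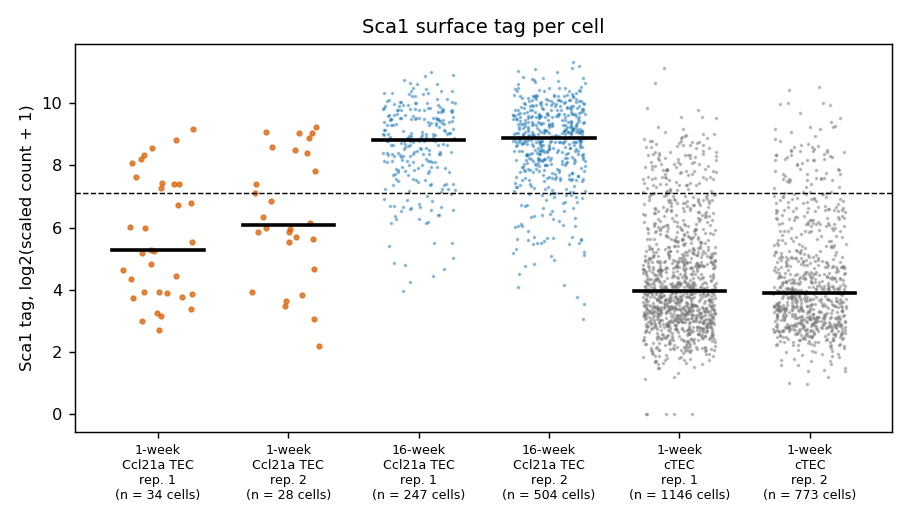
Sca1 tag per cell, as log2 of the scaled count plus 1 (y axis), for Ccl21a TEC of both ages and neonatal cTEC by well (x axis). Each point is a cell, black bars are medians and the dashed line is the limit at 7.12, above which lie 21 of 62 neonatal and 655 of 751 adult Ccl21a TEC.

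CD40, CD63, Podoplanin, CD73 and Epcam were higher on the neonatal members. CD40 had means of 5.77 and 5.39 against 3.62 and 3.51, and its difference was 1.30 in cTEC, 1.64 in collagen-rich cells and 1.05 in Aire-positive TEC. CD63 had 6.53 and 5.73 against 4.28 and 4.14, with differences of 1.17, 1.08 and 1.67 in the same classes. Both tags were thus higher at 1 week in every class compared. Podoplanin had 6.51 and 5.93 against 4.51 and 4.08, while its difference was -0.03 in cTEC, 0.21 in collagen-rich cells and 0.86 in Aire-positive TEC. Its gene Pdpn was also called higher, at 152 and 187.7 CPM against 75.9 and 63.7. CD73 had 3.68 and 3.47 against 2.43 and 2.36, while its gene Nt5e had 0 UMIs at 1 week. Epcam had 7.53 and 7.07 against 6.42 and 6.46, and Epcam RNA differed by 0.12 on the log2 scale. The Epcam tag was higher at 1 week in the other classes as well, by 0.78 in cTEC, 0.83 in Aire-positive TEC and 1.49 in collagen-rich cells.

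Scaled by the tag total, CD80, a costimulatory ligand of mature mTEC, and CD9 were lower. CD80 had means of 1.86 and 1.48 at 1 week against 2.78 and 2.59, with 2 UMIs of Cd80 RNA over all neonatal members. CD9 had 3.66 and 3.87 against 4.63 and 4.40, with differences of -0.65 in cTEC, -1.04 in collagen-rich cells and -0.32 in Aire-positive TEC. CD9 was not called at a Ccl21a limit of 0.5%, with a centred log ratio or with MHCII and UEA1 left out of the tag total. Among cells of at least 5000 UMIs only CD40, CD63 and Podoplanin were still called higher and only Sca1 lower. In counts that were not scaled 13 tags were called higher and 0 lower, and the tag totals of neonatal members were larger. As log2 of the unscaled count plus 1 the difference was 0.74 for CD9 and 0.06 for CD80, so neither was lower at 1 week without scaling.

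**Figure D4:**
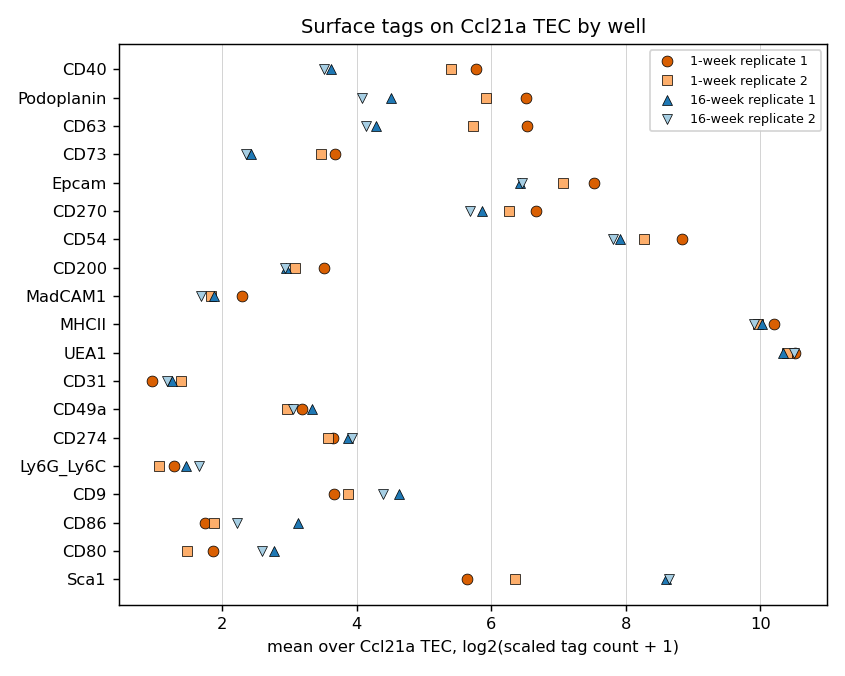
Mean of each surface tag over Ccl21a TEC, as log2 of the scaled count plus 1 (x axis), for the 19 tags with a mean of at least 1 in any well (y axis), with 1 point per well. CD40, Podoplanin, CD63, CD73 and Epcam lie higher at 1 week (orange) and Sca1, CD80 and CD9 higher at 16 weeks (blue), while UEA1 and MHCII overlap.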

How the data were processed

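Each of 4 wells gave an RNA and a tag library, 8 in all. Per the labels and methods the authors aligned reads to mm10 with STARsolo 2.7.9a, kept cells of at least 2000 UMIs and deposited raw counts, with no normalization, for 55487 genes and 27 tags. Before its TEC analysis the study excluded a cluster rich in mitochondrial and ribosomal reads and low in counts. Its cells were not left out here, and how many members were among them is unknown. Wells were read from cell names, and 55141 gene identifiers matched a GENCODE symbol. Depth ran from 21281389 to 45480790 RNA UMIs per well, but the neonatal members held only 381572 and 330314 of them, which limits single neonatal genes.

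Members and gene lists were chosen with earlier results of these data known. UMIs of members were summed per well and divided by the total (CPM). Named genes were the 12 called genes per direction with the largest ratio and 100 or more UMIs (no mitochondrial, ribosomal or unnamed genes), the rule genes, the sex-linked genes, and called or highest genes of each list. A pool at 0 was set to 3 counts. With 1 pool per age no test was run. Doublets were scored with scrublet (scanpy 1.11.5), whose automatic limit marked only 14 cells, so in an alternative the 253 highest scores were removed. Other alternatives changed the limits of the rule, the scaling (edgeR 4.0.16 TMM, median-of-ratios), filters, folds, tag scaling and wells. The labels and methods name different kit versions.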

Additional observations from a re-analysis of the deposited data

Results flagged for a closer look

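The well means of the CD73 tag differed between ages with opposite signs in members and in cTEC. It was higher at 1 week in members in both wells (a difference of 1.18), while in cTEC it averaged 3.42 and 3.42 at 1 week against 3.86 and 3.60 at 16 weeks, a difference of -0.31. The cTEC difference was smaller than the 0.5 needed for a call, and the difference between the classes was not tested.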

How the results depend on the processing

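The 24 genes named for their ratio kept direction and stayed at least 2-fold apart in each of 240 recomputed values, and 43 of these values moved by more than 1.5 times. With each cell weighted equally 13 genes moved, among them Ccl11 to -3.98, Chil4 to -2.81, Chil3 to -3.07 and Cnmd to 3.34. With every pool under 3 counts set to 3, chosen after seeing the data, 7 moved, to between -4.29 and -2.71. Without 1-week replicate 1, 12 moved: Cnmd to 5.31, Cenpf to 2.17, Hsd11b1 to -1.66, Gpx2 to -1.89, Gm38211 to -2.90, Ddit4l to -3.18, 1700019D03Rik to -3.19, Gdpd5 to -3.32, Pkp2 to -3.35, Ces1d to -3.39, Chil3 to -3.94 and Scn7a to -4.05. Without 1-week replicate 2, 11 moved: Cnmd to 2.19, 1700019D03Rik to -1.81, Gdpd5 to -1.94, Pkp2 to -1.97, Ces1d to -2.01, Hsd11b1 to -3.45, Gpx2 to -3.68, Gm38211 to -3.69, Chil3 to -3.74, Scn7a to -4.26 and Ddit4l to -4.98. Neonatal pools left at 0 were set to 3 counts there. No paired analysis was possible because the results come from no test and the wells of an age are 1 pool. Removing doublets changed nothing beyond the spread between wells. The mean neonatal share of 2.34% became 2.76% and 1.05% with Ccl21a limits of 0.1% and 0.5%, 0.952% and 3.69% with Psmb11 and Prss16 limits of 0.05% and 0.2%, and 2.62% in cells of at least 5000 UMIs. The adult share of 18.6% became 24.5% and 9.26% with the Ccl21a limits and 11.6% in the deeper cells. Genes called higher (235) became 154 at a Ccl21a limit of 0.5%, 517, 733 and 72 with at least 10, any and at least 200 UMIs, and 600 and 49 at folds of 1.5 and 4. Genes called lower (608) became 391 in deeper cells, 1591, 4123 and 185 with those filters, and 1143 and 160 at those folds. Leaving out 1 well, which leaves fewer wells to meet the rule and fewer UMIs, gave 195 to 430 higher and 343 to 1414 lower genes, with 401 and 1218 without 1-week replicate 1, 430 and 1414 without 1-week replicate 2, and 343 lower without 16-week replicate 2. It gave 5 to 8 tags higher (8 without 1-week replicate 2) and 3 to 4 lower. Weighting each cell equally gave 259 and 707, of which 166 and 448 were shared. TMM moved the median of all genes from -0.05 to -0.16 and gave 183 and 717. Tags called higher became 3 in deeper cells, 8 with a centred log ratio and 13 unscaled, and tags called lower 1, 10 and 0, and 1 at a difference of 1. The difference in the share with cell cycle UMIs, 36.4 percentage points, became 50.7 with at least 3 UMIs and 13.8 unthinned. The causes were not tested.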
